A study of Equus asinus with 3 samples.

Results

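The barcodes described here are the T and NK lymphocytes of the donkey epididymal corpus, the middle stretch of the duct in which sperm mature. They were selected in the corpus library as barcodes with 2 or more UMIs (unique molecular identifiers, each standing for 1 captured RNA molecule) summed over CD3E, CD3D, CD3G, CD2, CD5, CCL5, IL7R and LCK. This sum also had to exceed that of the macrophage genes CD163, CSF1R, C1QA, C1QB, C1QC and CD14. The rule took 137 of the 9611 corpus barcodes (1.43%, exact binomial 95% interval 1.20 to 1.68%), out of 27699 barcodes in the series. Applied to the library of the caput, the head of the epididymis, it took 659 of 9478 barcodes, and in testis 148 of 8610.

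The series holds 3 single-cell libraries of Equus asinus, 1 each from testis, epididymis caput and epididymis corpus, with tissue from 3 sexually mature male donkeys. The labels name no breed and no treatment, and do not say how the animals were shared among the libraries. Tissue was kept in storage solution, digested with collagenase IV and DNase I and loaded on a droplet system. With 1 library per region there is no replicate, so no p-values are given and every interval below covers counting error only.

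T lymphocytes recognise antigen through a T cell receptor that signals through the CD3 chains, CD247 and the kinase LCK. Natural killer (NK) cells lack that receptor but share with cytotoxic T cells the granule proteins, the killer lectin-like receptors and the chemokine CCL5. In the epididymis, where sperm carry antigens that arise after immune tolerance is set, T and NK cells are known to lie mainly in and beside the duct epithelium, with macrophages close by.

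The corpus library was shallow. The 137 barcodes held 66234 UMIs in all, between 298 and 1501 each with a median of 405, and a median of 339 genes. The library median was 371 UMIs, and the caput T and NK barcodes had a median of 1259. Of the 137 barcodes, 7 were merged from more than 1 bead. Barcode names are serial numbers, so the 9 names that corpus and caput T and NK barcodes share say nothing of shared cells.

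The genes that chose the barcodes are given as a description only. CCL5, a chemokine of activated T and NK cells, had 99 UMIs in 61 barcodes. The CD3 chains of the receptor complex followed with 68 UMIs for CD3E, 55 for CD3G and 39 for CD3D. The kinase LCK had 31 UMIs, the adhesion receptor CD2 had 22, CD5, a brake on receptor signalling, had 8, and the interleukin-7 receptor IL7R had 4. At least 1 CD3 UMI was present in 107 barcodes (78.1%) and absent from 30, and 15 were chosen on CCL5 alone. The label therefore rests on CD3 for most barcodes, while IL7R adds little: macrophage barcodes of the library held 6 UMIs of it. In caput T and NK barcodes the same genes stood at 512 CPM for CCL5 and 527 for CD3E, against 1495 and 1027 in corpus. The rule takes a larger level in a shallower barcode, so these are not compared.

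Most barcodes sat at the edge of the rule. A sum of 2 was found in 105 barcodes, a sum of 3 in 20 and a larger one in 12, with 7 as the highest. Just outside lay 609 barcodes with a sum of 1, and 5 with a sum of 2 that the macrophage genes exceeded or equalled (2 to 7 UMIs).

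Genes that the rule did not use followed the same order. Over 21 other T and NK genes, summed counts per 1000000 UMIs (CPM) were 453 (Poisson 95% interval 432 to 475) in barcodes with a rule sum of 0. They were 2120 (1949 to 2301) at a sum of 1, 3557 (3049 to 4125) at a sum of 2, 4418 (3197 to 5951) at 3 and 4384 (2998 to 6188) above 3. The 3 selected groups overlapped one another in their intervals, and all stood above the barcodes with a sum of 1. At least 1 UMI of these 21 genes was carried by 70.5% of the barcodes with a sum of 2, against 40.9% with a sum of 1 and 12.5% with 0, at medians of 393, 371 and 371 UMIs. Barcodes with 1 rule UMI thus carried these genes at a level between the unselected and the selected ones.

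**Figure D1:**
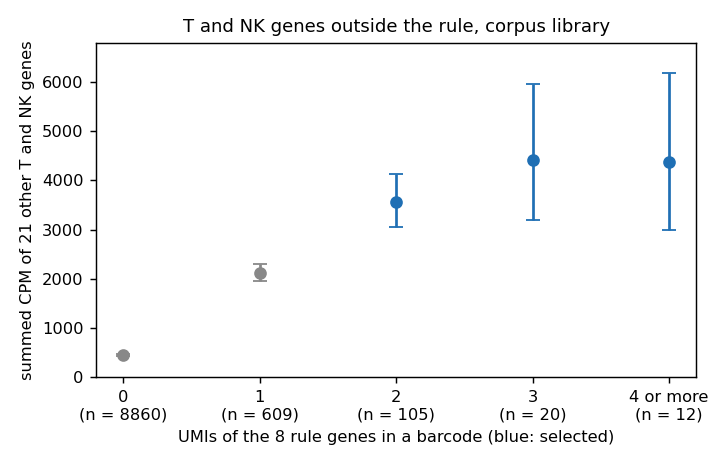
Summed CPM of 21 T and NK genes outside the rule (vertical axis) in corpus barcodes grouped by their UMIs of the 8 rule genes (horizontal axis); bars are 95% Poisson intervals. The level is 453 CPM at 0 UMIs, 2120 at 1 and 3557 at 2, and the selected groups (blue) overlap.

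Fibroblasts are the most abundant named cells of this library, and genes of theirs summed to 16094 CPM in the T and NK barcodes. Over the 5 fibroblast genes DCN, COL1A1, COL1A2, COL3A1 and LUM, which encode matrix proteoglycans and collagens, the 137 barcodes held 583 UMIs. The spread was very uneven: 67 barcodes had 0, 38 had 1, 12 had 2 to 4, 4 had 5 to 9 and 16 had 10 or more, up to 80. The 20 barcodes with 5 or more held 88.3% of these UMIs. Their share, 14.6%, compares with 5.91% of the 254 corpus macrophage barcodes and 3.03% of the caput T and NK barcodes. Those 20 barcodes had a median of 529 UMIs against 386 in the other 117.

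**Figure D2:**
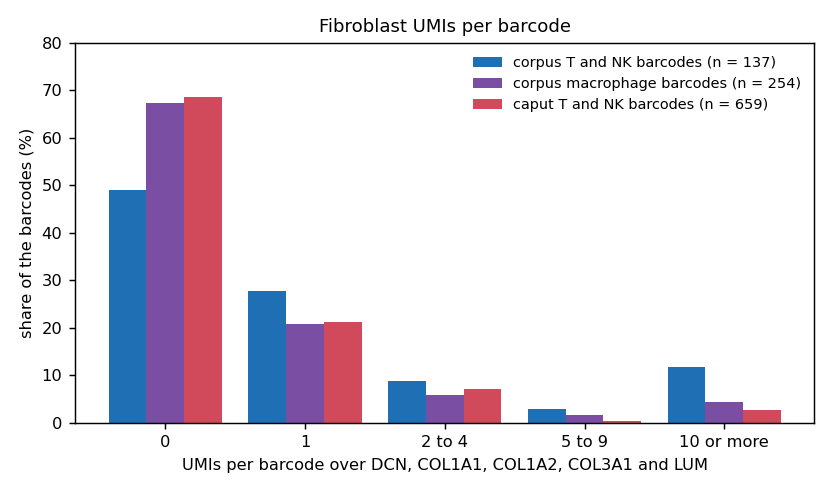
Share of barcodes (vertical axis, percent) by their UMIs over 5 fibroblast genes (horizontal axis) in corpus T and NK, corpus macrophage and caput T and NK barcodes. Of the 137 corpus T and NK barcodes, 67 sit at 0 and 16 at 10 or more.

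The fibroblast signal was measured against 2489 fibroblast barcodes of the same library, taken as those with 10 or more UMIs over the 5 genes and 0 over the rule genes. In 40 other fibroblast genes with enough UMIs, the T and NK barcodes stood at a median of 19.97% of the fibroblast level, and the interval of each of the 40 held that median. Without the 20 barcodes the median was 3.72%, and 38 of the 40 intervals held it (COL14A1 and COL6A3 stood above). In the 20 barcodes alone it was 86.0%. Macrophage barcodes stood at 7.57% and the 112 luminal epithelial barcodes at 2.67%.

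APOE, the lipid carrier the most abundant of these genes, shows the 3 levels. It stood at 24145 CPM in fibroblast barcodes, at 24288 in the 20 T and NK barcodes and at 975 in the other 117. APOD, a second apolipoprotein, stood at 18280, 17564 and 663 CPM in the same order, and the matrix calcification inhibitor MGP at 3908, 3782 and 110. SMOC2, a matricellular protein, had 926 and 672 CPM and then 0 UMIs, which allows up to 55.2 CPM. The 20 barcodes thus carried fibroblast genes at the level of fibroblasts, and the 117 at a few percent of it. Whether the 20 hold 2 cells in a droplet was not tested, and doublets were not removed.

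By a rule of size, 98 of 10429 genes (0.940%) were lower in the T and NK barcodes than in fibroblast barcodes. A gene passed when its whole interval lay beyond 2-fold and the higher side held 20 or more UMIs. Of 41 fibroblast genes with enough UMIs, 28 passed (median log2 ratio over the list -2.30, over all genes tested 0.17), and 34 did so without the 20 barcodes. Among those with intervals farthest from 1 were ISLR (45.3 against 811 CPM), the growth factor IGF1 (121 against 1029), the collagen processing enhancer PCOLCE (30.2 against 459) and the follistatin-like protein FSTL1 (60.4 against 650 CPM). The complement protease C1R (332 against 2109 CPM), the chemokine CXCL12 (181 against 1288), IGFBP6 (408 against 2407), PRSS23 (106 against 903) and the lipid transporter ABCA8 (45.3 against 546) stood lower as well. The fibroblast barcodes were chosen on collagen genes, so this direction describes the reference.

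In the other direction 82 of 337 genes (24.3%) were higher in the T and NK barcodes, rule genes left out. A gene was taken as the lymphocytes' own when macrophage, luminal and 20 endothelial barcodes did not exceed it 3-fold or more. This held for 78 of the 337 (23.1%), of which 67 carry a symbol and 25 encode ribosomal proteins. Without the 20 barcodes rich in fibroblast RNA, 72 of the 78 passed again. An own gene could still stand higher in macrophage barcodes, short of 3-fold. The 4 genes set aside were RGS1 and ZFP36, which macrophage barcodes carried at higher levels (RGS1 at 5728 against 1389 CPM, ZFP36 at 2011 against 483), SPINK2, which luminal barcodes carried at 32762 against 876 CPM, and LOC106834828.

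The size of these calls depends on the scaling. A median of ratios in place of CPM moved the level of all genes between the 2 classes by 0.73 on the log2 scale, left 30 genes higher and called 280 lower. T and NK barcodes held 45.6% of the calls by CPM and 9.68% by the median of ratios. The own genes then numbered 28, all among the 78, with 0 of the 25 ribosomal protein genes.

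Receptor and signalling genes were among the own genes. CD247, the zeta chain through which both the T cell receptor and several NK receptors signal, had 26 UMIs in 22 barcodes, 393 against 32.6 CPM in fibroblast barcodes (12.03-fold, 7.01 to 20.3). It was the 1 gene of its list with enough UMIs outside the rule, and it passed, beside 24.3% of all genes by CPM. TRAT1, an adaptor of the same complex, stood at 211 against 17.2 CPM on 14 UMIs. Of 3 signalling genes with enough UMIs, 2 passed, beside the same 24.3%. The 2 were the adaptors LCP2 (347 against 35.2 CPM, 9.86-fold, 5.65 to 16.8) and SKAP1 (332 against 90.2, 3.68-fold, 2.21 to 5.88). The kinase FYN did not pass (332 against 183 CPM, 1.82-fold, 1.11 to 2.82), and SKAP1 did not pass with the median of ratios. Needing 20 UMIs on the T and NK side favours passing, so both counts are descriptions.

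Constant regions of antigen receptors have no symbol in these files, and were found by their type in the RefSeq annotation of the donkey (assembly EquAss-T2T_v2). The 2 between MGAM and EPHB6 held 119 UMIs, 1797 CPM against 61.0 in fibroblast and 74.5 in macrophage barcodes. Both were own genes by either scaling: LOC106833889 had 69 UMIs in 44 barcodes (39.1-fold, 25.3 to 61.9, the interval farthest from 1 of all own genes) and LOC106833843 had 50 UMIs in 34 (22.0-fold, 14.2 to 34.2). The 2 beside DAD1 held 71 UMIs (1072 against 264 CPM), of which LOC106840669 had 52 (3.11-fold, 2.27 to 4.19) and passed by CPM only. The library held 1791 UMIs of LOC106840669, with 294 in fibroblast and 22 in macrophage barcodes. Most thus lay outside the T and NK, fibroblast and macrophage barcodes, and the gene was not particular to the lymphocytes. LOC106840671, beside LOC106840669, had 19, short of the 20 needed, at 25.7-fold. The 9 between AMPH and STARD3NL held 32 UMIs (483 against 124 CPM), and none of them had 20. In other mammals the T cell receptor beta, alpha with delta, and gamma genes lie beside these neighbours. The 8 at TMEM121 and the 3 between SLC5A4 and TOP3B, neighbours of the immunoglobulin genes in other mammals, held 4 and 0 UMIs.

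Cytotoxic genes were the next group. Of 23 measured, 4 had the 20 UMIs needed, and these 4 passed by either scaling, beside 24.3% of all genes by CPM. These genes had to reach 20 UMIs on the T and NK side, which favours passing. The counts for this and the other lists are therefore descriptions. CTSW, the cathepsin of cytotoxic lymphocytes, had 50 UMIs in 36 barcodes, 755 against 37.8 CPM (19.98-fold, 13.1 to 30.7). KLRK1, the activating receptor NKG2D of NK and CD8 T cells, had 35 UMIs in 30 barcodes, 528 against 21.5 CPM (24.6-fold, 14.3 to 42.9). GNLY, the pore-forming granulysin, had 21 UMIs in 13 barcodes, 317 against 16.3 CPM (19.4-fold, 9.95 to 38.2). SRGN, the proteoglycan that packs the granules of many leukocytes, stood at 679 against 55.0 CPM (12.4-fold, 8.25 to 18.4).

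As a whole the 23 measured cytotoxic and NK genes held 274 UMIs, or 4137 CPM, against 311 CPM in fibroblast barcodes. In macrophage barcodes the list reached 3530 CPM, mostly from genes shared by leukocytes such as TYROBP and SRGN (1624 and 1028 CPM). CTSW, KLRK1 and GNLY stood there at 44.7, 44.7 and 29.8 CPM.

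Shares of barcodes with a UMI told the same. CTSW was seen in 26.3% of the T and NK barcodes (19.1 to 34.5%), against 1.73% of fibroblast and 1.97% of macrophage barcodes, at median depths of 405, 412 and 473 UMIs. KLRK1 was seen in 21.9%, 0.964% and 1.97%. The share of T and NK barcodes with CTSW exceeded the others beyond counting error.

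Genes that divide T and NK subsets had few UMIs. The co-receptor CD8A had 9 UMIs in 8 barcodes, 136 against 7.73 CPM in fibroblast barcodes (17.6-fold), and its partner CD8B had 3. CD4, the helper co-receptor, had 1 UMI. The lectin-like receptors KLRB1 and KLRD1 had 16 and 13 UMIs (242 and 196 CPM against 10.3 and 17.2), the granule membrane protein NKG7 had 11 (166 against 7.73 CPM), and the granzymes GZMK and GZMA 10 and 6. None reached 20 UMIs, so none could pass, but the intervals of KLRB1, KLRD1, NKG7, GZMK, GZMA and CD8A over fibroblast barcodes all lay above 2-fold.

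FOXP3, the factor that defines regulatory T cells, and the checkpoint receptors CTLA4, PDCD1 and LAG3 had 0 UMIs, which allows up to 45.3 CPM each. The checkpoint list as a whole had 12 UMIs in 5 of 8 measured genes, 181 against 80.7 CPM in fibroblast barcodes (2.24-fold, 1.12 to 4.11). IL2RA and IKZF2 had 7 and 10 UMIs. The regulatory T cell list as a whole had 19 UMIs in 4 of 8 measured genes. It stood at 287 CPM against 110 in fibroblast barcodes (2.61-fold, 1.52 to 4.25) and 171 in macrophage barcodes (1.67-fold, 0.862 to 3.21). The factor of naive and memory T cells TCF7 had 8 UMIs and the lymph node homing receptor CCR7 had 0, with the same upper limit of 45.3 CPM.

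Secreted effectors were sparse too. The chemokine CCL4 had 14 UMIs in 8 barcodes (211 against 6.87 CPM) and interferon gamma, IFNG, 7 UMIs in 6 barcodes (106 against 3.43 CPM). Over fibroblast barcodes CCL4 was 30.8-fold higher, and IFNG as well (7.82 to 143). Among genes linked to retention in tissue, the activation antigen CD69 had 15 UMIs (226 against 13.7 CPM, and 7.45 in macrophage barcodes). RGS1 had 92 UMIs, 1389 against 127 CPM in fibroblast barcodes (10.9-fold). It was set aside from the own genes because macrophage barcodes exceeded it 3-fold or more. Whether any of the RGS1 UMIs in the T and NK barcodes came from macrophages was not tested.

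**Figure D3:**
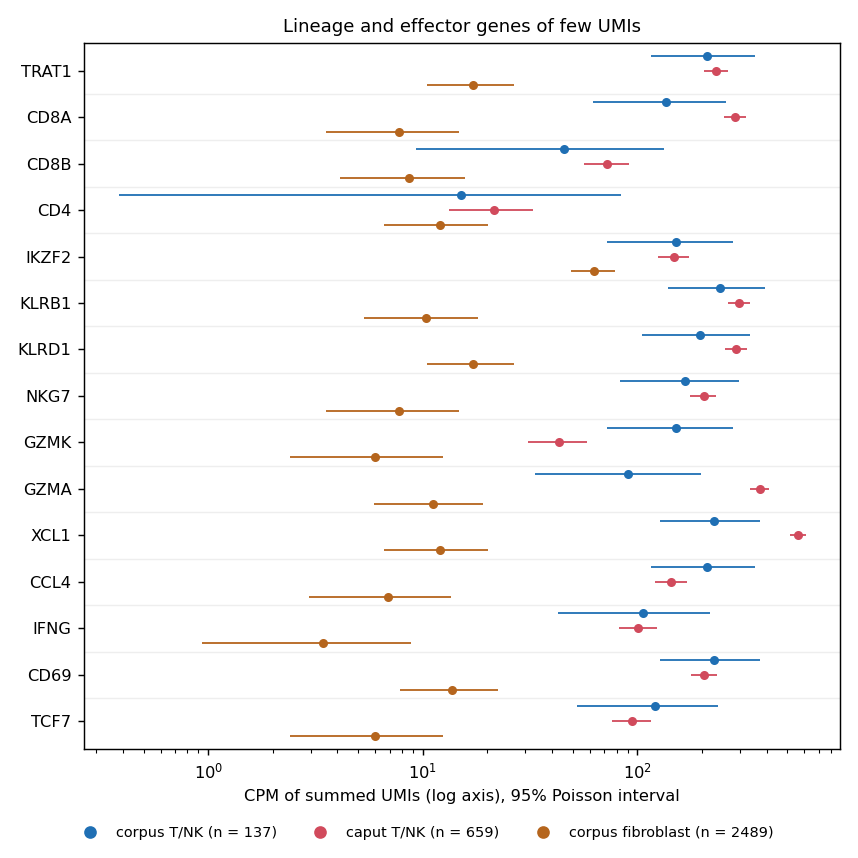
CPM (horizontal log axis, 95% Poisson intervals) of 15 lineage and effector genes in corpus T and NK barcodes, caput T and NK barcodes and corpus fibroblast barcodes. Corpus and caput lymphocytes overlap for most genes, GZMA and XCL1 lie lower in corpus and GZMK higher, and CD4 lies near the fibroblast level.

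Of 25 measured genes shared by leukocytes, 7 had the 20 UMIs needed in the T and NK barcodes, and these 7 passed by either scaling, beside 24.3% of all genes by CPM. Reaching 20 UMIs on the side where a gene is high favours passing, so the count is a description. The actin regulator CORO1A had 82 UMIs in 51 barcodes, 1238 against 50.7 CPM (24.4-fold, 17.3 to 34.8). ARHGDIB stood at 1012 against 43.8 CPM (23.1-fold), the tetraspanin CD53 at 317 against 11.2 (28.4-fold), LAPTM5 at 740 against 36.1 (20.5-fold) and the GTPase RAC2 at 483 against 21.5 CPM (22.5-fold). PTPRC, the phosphatase CD45, stood at 725 against 91.0 CPM (7.96-fold, 5.54 to 11.3) and the actin bundler LCP1 at 589 against 60.1 (9.80-fold). The lymphocyte factor ETS1 (423 against 30.9 CPM, 13.7-fold, 8.04 to 23.1) and the homing receptor CXCR4 (393 against 34.3, 11.4-fold, 6.70 to 19.2) passed as well.

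**Figure D4:**
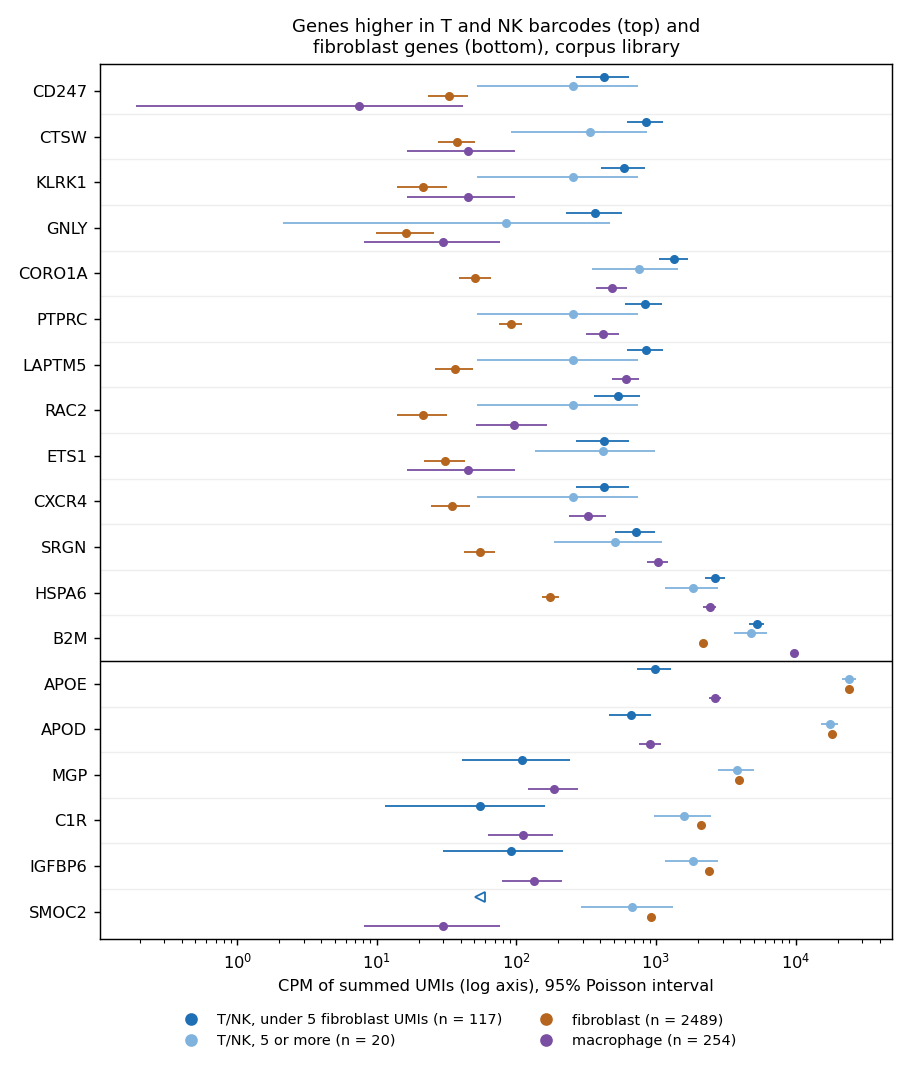
CPM (horizontal log axis, 95% Poisson intervals; an open triangle marks the upper limit of a gene at 0 UMIs) of genes higher in T and NK than in fibroblast barcodes, above the line, and of fibroblast genes, below it. T and NK barcodes with 5 or more fibroblast UMIs match fibroblasts below the line (APOE at 24288 and 24145 CPM), and the others do not.

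Stress and translation genes were a further group. Of 17 immediate-early and dissociation genes with enough UMIs 9 passed, against 24.3% of all genes, and 3 did so with the median of ratios: the heat shock proteins HSPA6, HSPA8 and HSPH1. HSPA6, an inducible chaperone, had 166 UMIs in 73 barcodes, 2506 against 175 CPM (14.3-fold, 11.6 to 17.6), and macrophage barcodes held 2421 CPM. FOS stood at 3291 against 1683 CPM (1.96-fold, 1.69 to 2.25) and JUN at 1208 against 1135, and neither passed. The share of ribosomal protein UMIs had a median of 9.50% per barcode, against 3.62% in fibroblast, 7.74% in macrophage, 7.89% in luminal and 9.41% in endothelial barcodes. The library median was 1.22%, and 47.7% of the library barcodes had a share under 1%, against 4.38% of the T and NK barcodes. B2M, the light chain of MHC class I, stood at 5164 against 2178 CPM (2.37-fold, 2.11 to 2.65) and at 9720 in macrophage barcodes, and the actin-binding peptide TMSB4X at 4122 against 1740. Neither passed with the median of ratios.

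Against the 254 macrophage barcodes, the other leukocytes of the library, 23 of 341 genes (6.74%) were higher in T and NK barcodes and 114 of 923 (12.4%) lower. CD247 stood at 393 against 7.45 CPM (52.7-fold, 8.66 to 2161), CTSW at 755 against 44.7 (16.9-fold, 7.24 to 48.2), the membrane linker EZR at 468 against 37.2 (12.6-fold, 4.84 to 41.4), KLRK1 at 11.8-fold and GNLY at 10.6-fold. Fibroblast genes were among the 23 too, with APOD at 3699 against 909 CPM, but at 663 CPM in the 117 barcodes. Lower were the macrophage genes LYZ, lysozyme (15.1 against 3434 CPM), the class II chain CD74 (544 against 19068), the protease inhibitor CST3 (664 against 15351), GPNMB, CTSZ and ATF3, with CD68 and CD83 at 0 UMIs (at least 11.2-fold and 13.8-fold lower).

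Of 11 measured B and plasma cell genes 6 were at 0, among them CD79A, CD79B, MS4A1, JCHAIN and MZB1, and 9 of 13 dendritic, mast and granulocyte genes were at 0. The 2 lists summed to 16 and 6 UMIs, or 242 and 90.6 CPM. Fibroblast barcodes held 161 and 90.1 CPM and macrophage barcodes 171 and 142, and the intervals of these ratios all held 1. The share of all genes at 0 was not counted, so the zeros are a description. Of 19 macrophage genes outside the rule 12 were seen, with 65 UMIs (981 CPM, against 11120 in macrophage and 2813 in fibroblast barcodes), of which SELENOP held 26 and CD68, AIF1 and SPI1 0. The luminal genes LTF, PATE1, CES5A and DEFB136 had 31 UMIs, every one in a single barcode of 1501 UMIs, which also held 46 of the 58 SPINK2 UMIs. Without that barcode SPINK2 stood at 0.803 times the fibroblast level (0.410 to 1.43) and its call ended, as did that of LOC106834828 (6.71-fold with it, 1.31-fold without). The calls of both over macrophage barcodes ended too (SPINK2 7.84-fold with that barcode and 1.66-fold without, LOC106834828 4.73 and 0.922-fold). Over fibroblast barcodes TPT1 hardly changed (2.47-fold with that barcode, 2.43-fold without), but its interval then began at 1.97 and fell just short of the rule. A second barcode, of 694 UMIs, held 29 of the 44 CST3 UMIs and 16 of CD74, with 2 of CCL5 and 1 of CD3G and 0 of the macrophage rule genes. CD52, a glycoprotein of both lymphocytes and the duct epithelium, had 13 UMIs in 13 barcodes and stood at 1.23% of its level in luminal barcodes (0.654 to 2.11%), against a median of 3.14% for 12 other luminal genes. That median includes the single barcode with luminal UMIs, and its value without that barcode was not computed. In macrophage barcodes CD52 stood at 1.31% (0.866 to 1.90%) against a median of 0.827%, and in fibroblast barcodes at 0.635% against 0.586%.

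Among the 137 barcodes, those with CCL5 and those without differed by the rule in few of the genes with enough UMIs. The 61 with CCL5 and no IL7R were set against the 76 without CCL5, and 1 of 118 genes (0.847%) was higher and 2 of 167 (1.20%) lower. CST3 was the higher gene and SPINK2 and LOC106834828 the lower, and these rest largely on the 2 single barcodes above. Cytotoxic and NK genes, CCL5 left out, summed to 4194 CPM with CCL5 and 4095 without (ratio 1.02, 0.799 to 1.31). Of genes too sparse to pass, CCL4 had 12 UMIs with CCL5 and 2 without (8.12-fold, 1.81 to 74.7). GZMK had 8 and 2 (5.42-fold, 1.08 to 52.4). CTSW, KLRK1 and GNLY leaned the other way (0.698, 0.706 and 0.833-fold), with intervals that held 1. Antigen presentation genes stood at 7535 against 5538 CPM (ratio 1.36, 1.12 to 1.65). CD74 had 27 UMIs with CCL5 and 9 without, and the single barcode rich in CST3 held 16 of the 27. The ratio without that barcode was not computed. Against the 4 barcodes with IL7R and no CCL5, 0 of 118 genes (0%) were higher and 0 of 1 (0%) lower, on 1867 UMIs for that side, so a difference was not detectable at this depth.

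The corpus barcodes were then compared with the caput T and NK barcodes, the same kind of cell in the stretch of duct upstream. Of 341 genes 22 (6.45%) were higher in corpus, and of 9728 genes 46 (0.473%) higher in caput. The compared libraries differ in depth and each is a single one, so region and library cannot be told apart.

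The higher corpus genes were mainly those of fibroblasts, 17 of the 22 standing 3-fold or more above the T and NK level in corpus fibroblast barcodes. The others were CST3, LOC123288213, LOC123281781, LOC123281850 and LOC106834828. Without the single barcode with luminal UMIs the call of LOC106834828 ended (3.74-fold with that barcode, 0.729-fold without). Another single barcode held 29 of the CST3 UMIs. APOE stood at 5164 against 321 CPM (16.1-fold, 13.8 to 18.8), APOD at 3699 against 247 (15.0-fold), DCN at 6235 against 614 (10.2-fold, 8.94 to 11.5), C1R at 332 against 36.8 (9.04-fold) and the microfibril protein FBLN1 at 528 against 66.4 (7.96-fold). TIMP3, IGFBP6, SPARC, COL1A2, MGP, COL1A1 and GSN lay between 5.40 and 7.77-fold. With the barcodes of 5 or more fibroblast UMIs left out of both libraries, the corpus values were 975 CPM for APOE and 663 for APOD, against 43.5 and 69.0 in caput. APOE was then 22.4-fold (14.6 to 34.6) and APOD 9.61-fold (6.21 to 14.7) higher, and 9 genes in all were higher in corpus. A limit of 5 UMIs is stricter per UMI in the deeper caput barcodes, and DCN, which set it, is not compared.

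The higher caput genes were mainly those of the caput epithelium: 39 of 46 stood 3-fold or more above the caput T and NK level in 2618 caput barcodes with the luminal program. The beta-defensin DEFB119 had 0 UMIs in corpus and 3200 in caput T and NK barcodes (at least 72.1-fold higher in caput), the sperm-binding protein BSPH1 had 9 and 3671 (27.6-fold, 14.5 to 60.4), EDDM13 had 1 and 1119, GSTM3 1 and 638 and MUC15 2 and 621. RNASE10, DEFB113, LCN6, DEFB121 and SPINK8 had 0 UMIs in corpus, and caput was at least 15.6, 10.4, 9.13, 7.37 and 5.63-fold higher. NPC2, a sterol carrier (695 against 4198 CPM), stood lower in corpus as well. Also among the 39 was LOC106825212, 1 of the constant regions between AMPH and STARD3NL, with 0 UMIs in corpus. It stood at 785 CPM in caput luminal barcodes, against 256 in caput T and NK barcodes. The 7 others, short of the 3-fold limit, were HOPX (45.3 against 565 CPM), SNRPN, NANS, COMMD6, the sperm genes TNP1 and SPA17, and LOC106848176, a constant region between SLC5A4 and TOP3B. Most of them still stood higher in caput luminal than in caput T and NK barcodes. HOPX stood at 1601 against 565 CPM, SNRPN at 649 against 242 and COMMD6 at 326 against 190. NANS stood at 250 against 114 and SPA17 at 221 against 176, while TNP1 stood lower (125 against 201). LOC106848176 had 0 UMIs in corpus and stood at 167 CPM in caput T and NK barcodes, against 9.76 in caput luminal barcodes.

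The 78 own genes were also set side by side in the regions. A gene needed 20 UMIs in the corpus barcodes to be among them, so genes low in corpus could not enter and the counts say little of the direction. By CPM 1 was higher in corpus (LOC123288213, 951 against 310 CPM) and 0 in caput, and by the median of ratios 0 were higher in corpus and 1 in caput (TPT1, 1706 against 3898 CPM). The CPM ratios had a median of -0.08 on the log2 scale with extremes of -1.19 (TPT1) and 1.74 (BTG2). The interval lay within 2-fold for 53 of them and within 4-fold for 75. CD247 stood at 393 against 427 CPM (0.920-fold, 0.594 to 1.37), KLRK1 at 528 against 719 (0.735-fold, 0.508 to 1.03), CTSW at 755 against 1010 (0.748-fold, 0.551 to 0.994), GNLY at 317 against 393 (0.807-fold, 0.494 to 1.25) and the MGAM to EPHB6 constant regions at 1797 against 2081 CPM. CORO1A stood at 1238 against 649 CPM (1.91-fold, 1.50 to 2.40), HSPA6 at 2506 against 1156 (2.17-fold, 1.83 to 2.55) and PTPRC at 725 against 1208 (0.600-fold, 0.440 to 0.801), all short of the rule.

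Among genes of few UMIs, GZMK stood at 151 against 42.9 CPM (3.52-fold, 1.58 to 7.13) and GZMA at 90.6 against 372 (0.244-fold, 0.0889 to 0.536). XCL1, a chemokine named here after its values were seen, stood at 226 against 561 CPM (0.403-fold, 0.224 to 0.671). The 3 intervals lay to 1 side of 1 but did not pass by CPM, and GZMA passed as lower in corpus by the median of ratios. After every barcode was thinned to 300 UMIs, CTSW was seen in 19.4% of 134 corpus and 25.9% of 659 caput T and NK barcodes and KLRK1 in 15.7% and 20.2%. CORO1A was seen in 28.4% and 18.4%, HSPA6 in 42.5% and 25.2% and DCN in 34.3% and 6.83%. The thinned shares leaned the same way as the CPM for these genes, but not for GNLY (8.21% and 6.83%) and NKG7 (5.97% and 5.01%), whose CPM was lower in corpus.

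**Figure D5:**
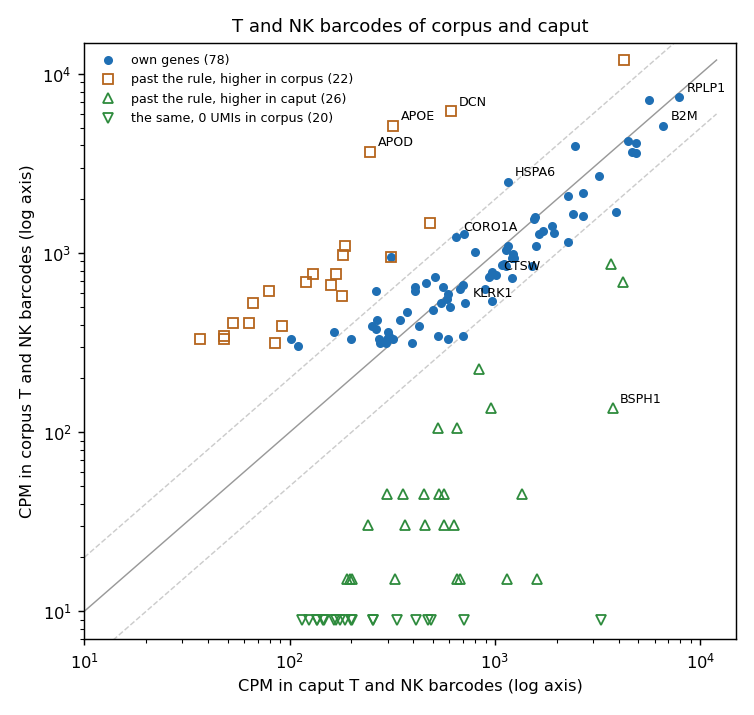
CPM in corpus against caput T and NK barcodes (log axes; the solid line marks equal values and the dashed lines 2-fold; triangles pointing down have 0 UMIs in corpus and are drawn at the foot). The 78 own genes lie along the line (1 of them, LOC123288213, is also past the rule), while the 22 genes higher in corpus and the 46 higher in caput lie apart.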

How the data were processed

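Each deposited matrix gives raw UMI counts per gene and barcode, not normalized by the authors. PISA v0.12 is the program named in their headers. Cell Ranger 2.1.1 appears in the submitters' processing notes with no role stated. Neither the aligner nor the build is stated in the labels or headers used here. For 710 corpus features named LOC, RefSeq supplied a symbol. All deposited barcodes were kept, and no doublet caller was run.

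UMIs were summed per class of barcodes and scaled to CPM. Macrophage barcodes had 2 or more UMIs over the 6 macrophage rule genes and more than over the T and NK genes. Luminal barcodes had 5 or more over LTF, PATE1, CES5A and DEFB136, and endothelial barcodes 2 or more over PECAM1, VWF, CDH5, EGFL7 and TIE1, with 0 over both sets of rule genes. Fibroblast barcodes had fewer than 5 luminal UMIs. Ratios of sums have exact conditional binomial 95% intervals, CPM exact Poisson and shares exact binomial (Clopper-Pearson) ones, all for counting error only. A count of 0 was given an upper limit of 3 UMIs. Thinning took 300 UMIs per barcode (seed 1). The comparison was tested on simulated data.

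Named genes were the rule genes, the 12 with a symbol in each direction whose interval lay farthest from 1 (8 against macrophages, 5 by CCL5), up to 5 genes per list with the most UMIs and any list gene past the rule. Subset markers and genes at 0 come from the marker lists. The barcodes and lists were chosen with earlier results of these data known. Alternatives changed the rule, the filters, the fold, the scaling, the reference and the depth. Computations ran in Python 3.11.15 with scipy 1.17.1 (exact intervals), numpy 2.4.6 and pandas 2.3.3, with figures from matplotlib 3.10.9.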

Additional observations from a re-analysis of the deposited data

How the results depend on the processing

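No paired analysis was possible because each region has 1 library. Depth is a limit: 1 UMI in the 137 barcodes equals 15.1 CPM, and most subset markers had under 20 UMIs. Of 90 values recomputed under alternatives, 48 stayed within 1.5 times the reported count (or within the interval of a share or ratio) and 42 did not; the latter follow, and where nothing else is said the cause was not tested.

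With 3 or more rule UMIs there were 32 barcodes, a fibroblast ratio of 0.0489, 40 genes higher and 42 lower than in fibroblast barcodes, 37 own genes, 4 higher and 41 lower than in macrophage barcodes, and 7 higher and 21 lower than in caput, on fewer barcodes. No barcode had IL7R without CCL5 there, so that split was not run. With CCL5 left out of the rule there were 89 barcodes, a ratio of 0.166, 14 genes above macrophage barcodes and 11 above caput. Without barcodes of 5 or more fibroblast UMIs the ratio was 0.0372 and 9 genes stood above caput. A minimum of 10 UMIs gave 140 genes above fibroblast barcodes, 128 own, 48 above macrophage barcodes and 41 above caput. A minimum of 50 gave 41, 39, 11 and 10, and 62 below macrophage barcodes. Beyond 4-fold there were 26 genes above and 11 below fibroblast barcodes, 25 own, 7 above and 51 below macrophage barcodes, and 12 above and 20 below caput. The median of ratios gave 30 above and 280 below fibroblast barcodes, 28 own and 15 above macrophage barcodes, with shifts of 0.36 (macrophage) and 0.22 (caput) on the log2 scale. Fibroblast barcodes of 20 or more UMIs gave a ratio of 0.181. Thinning before the rule left 80 barcodes, 5 genes above and 14 below caput. Chosen after seeing the data, leaving out merged beads gave a ratio of 0.183, and setting CCL5 barcodes against all others gave 1 higher and 2 lower in place of 0 and 0. Leaving out the barcode with luminal UMIs, also chosen then, kept 77 of the 78 own genes.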
